A study of Mus musculus with 4 samples.

Results

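The 9 genes described here are 6 matrix metalloproteinases, the secreted or membrane-bound zinc proteases Mmp2, Mmp3, Mmp9, Mmp10, Mmp13 and Mmp14, and 3 of their tissue inhibitors, Timp1, Timp2 and Timp3. They were taken by gene symbol, with every probe that carries the symbol. All 9 were among the 12616 genes analysed, and they had 17 of the 45281 probes on the array. Of the 17 probes, 16 were detected on all 4 arrays, and the other, a second Mmp14 probe, was detected on none.

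Total RNA of mouse embryonic fibroblasts (MEFs) of strain FVB;129 was read on Illumina bead arrays, with 1 array for each of 4 conditions. Parental MEFs, the array named No Cre, were controls that kept their own Rb, and they were given a solution without TAT-Cre and then media alone. Rb-deleted MEFs (Cre) were given TAT-Cre, a Cre recombinase that enters cells as protein, and then media alone. WT Rb-HA MEFs (Cre + WT) were given TAT-Cre and a retrovirus carrying wild-type RB, and ΔCdk Rb-HA MEFs (Cre + dCDK) were given TAT-Cre and a retrovirus carrying dCDK RB, a mutant RB that Cdks cannot phosphorylate. Per the labels, each of these treatments was given 2 times for 1 h, 3 h apart, and the exogenous RB was expressed while the endogenous gene was being deleted. Per the study's methods, the Rb gene of these MEFs was flanked by LoxP sites, and all 4 cultures were released from contact inhibition and then treated with doxorubicin, which damages DNA. No array without doxorubicin was analysed here.

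Matrix metalloproteinases cut the proteins of the extracellular matrix and many secreted factors. Most are made as inactive proenzymes, which other proteases cut into active form, and the TIMPs bind the active site and block it. In fibroblasts, genes of the stromelysins and collagenases are known as targets of growth factors, interleukin-1 and AP-1 (Fos and Jun dimers), while Mmp2, Mmp14 and Timp2 are known for steady expression. The arrays read mRNA only, so proenzyme processing and enzyme activity were not measured.

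The mean intensity over all probes lay between 336 and 346 on the 4 arrays, the median number of beads per probe was 44 on each, and 15950 to 16740 probes were detected. With 1 array per condition there is no replicate spread, so no test was made and no p-value is given. The standard error over the beads of a probe (26 to 57 beads for the members' detected probes) is given after each log2 ratio as the measurement error. It covers the reading of 1 array, not the spread between cultures. The parental culture was the only one without TAT-Cre, and both Rb constructs came with a retrovirus while no culture had an empty virus. TAT-Cre and the loss of Rb therefore cannot be told apart, and neither can infection and the return of Rb.

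The deleted gene was read first. Here and below, values over the 4 arrays are given in 1 order, which starts with parental MEFs, goes on with Rb-deleted and then WT Rb-HA MEFs and ends with ΔCdk Rb-HA MEFs. The brighter Rb1 probe had intensities of 543, 160.5, 181 and 170.1. The log2 ratios to the parental array were -1.88 ± 0.08, -1.69 ± 0.06 and -1.75 ± 0.06. The 3 TAT-Cre arrays thus lay close together and below the parental array. The probe lies near the end of the transcript, and the deleted part is not given in the sources used here. The probe thus reports the level of transcripts with that end and not the deletion itself. Whether the retroviral RB carries the probe's sequence is not given either, so these values do not measure the return of RB. The study reported ectopic Rb protein at physiologic levels.

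Of the 9 members, Mmp3, Mmp10 and Mmp13 lie together on chromosome 9, where 10 metalloproteinase genes follow each other with no other protein-coding gene between the first and the last. The order there is Mmp13, Mmp12, Mmp1b, Mmp3, Mmp1a, Mmp10, Mmp8, Mmp27, Mmp20 and Mmp7 in the RefSeq annotation of GRCm38.p6. The annotated starts of Mmp13 and Mmp3 lie 173.3 kb apart, and those of Mmp3 and Mmp10 lie 56.5 kb apart. Of these 10 genes, 5 were detected on at least 1 array (Mmp13, Mmp12, Mmp3, Mmp1a and Mmp10).

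The 250 bases before the annotated start of these 3 genes are shown because the same pair of short motifs stands near the start in each. The sequences are from RefSeq (GRCm38.p6) and read 5′ to 3′ on the plus strand, which is the strand of all 3 genes. Capitals mark the AP-1 match TGANTCA and, after it, the TATA box match TATAAA. The regions are chr9:7445572-7445821 for Mmp3, chr9:7502092-7502341 for Mmp10 and chr9:7272264-7272513 for Mmp13.
Mmp3: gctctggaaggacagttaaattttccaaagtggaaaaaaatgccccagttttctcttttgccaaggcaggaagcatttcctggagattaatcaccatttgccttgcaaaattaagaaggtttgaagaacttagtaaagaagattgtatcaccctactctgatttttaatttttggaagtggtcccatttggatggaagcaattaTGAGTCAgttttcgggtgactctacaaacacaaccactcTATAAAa
Mmp10: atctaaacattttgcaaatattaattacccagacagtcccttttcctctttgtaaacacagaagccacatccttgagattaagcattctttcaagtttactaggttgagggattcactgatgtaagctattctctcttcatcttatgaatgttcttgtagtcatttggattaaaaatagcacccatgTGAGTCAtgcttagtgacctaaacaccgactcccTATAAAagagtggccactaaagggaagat
Mmp13: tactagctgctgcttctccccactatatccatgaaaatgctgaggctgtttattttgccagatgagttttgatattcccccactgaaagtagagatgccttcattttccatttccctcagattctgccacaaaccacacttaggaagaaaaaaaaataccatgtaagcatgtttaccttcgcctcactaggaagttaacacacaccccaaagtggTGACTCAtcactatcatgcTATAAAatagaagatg

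The AP-1 match began 46 bases before the annotated start in Mmp3, 63 in Mmp10 and 35 in Mmp13, and the TATA box match began 7, 29 and 16 bases before it. The matches do not overlap. The table of promoters held 7 of the 9 members, and Mmp2 and Mmp9 had no entry in it. Neither motif was found in the same window of Mmp14, Timp1, Timp2 or Timp3. Of all 32851 promoters in the table, 6.75% held TGANTCA on either strand, 12.4% held TATAAA and 1.21% held both. The pair was not particular to these 3 genes within the cluster, where 7 of the 10 genes held both motifs. One of the 7 was Mmp1a, which was detected and had a log2 ratio to parental of 0.23 ± 0.14 after Rb deletion. The base composition differed as well: G and C made up 37.6%, 37.2% and 40.4% of the window in Mmp3, Mmp10 and Mmp13, against 55.2% in Mmp14, 54.4% in Timp1, 68.0% in Timp2 and 65.6% in Timp3. The median over all promoters was 52.4%.

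A further 3 motifs were searched on both strands. The GC box GGGCGG was found in Mmp14, Timp1, Timp2 and Timp3 and not in Mmp3, Mmp10 or Mmp13, and 32.7% of all promoters held it. The PEA3-type ETS motif AGGAAG was found in Mmp3, Mmp13, Mmp14, Timp1 and Timp3, and 29.5% of all promoters held it. None of the 4 E2F words searched (TTTCCCGC, TTTGGCGC, TTTCGCGC and TTTGCCGC, in 1.86% of all promoters) was found in the 7 windows. A match gives the letters in the window and does not show that a factor binds there. The motifs were searched after the arrays' values were known.

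The probes of these 3 genes that lie farthest from the end of the transcript are shown, since the values below rest on them and on the probes after them. Each is 50 bases long and is named by the base of the transcript at which it begins. The deposited table gives them in the sense direction.
Mmp3 at 805: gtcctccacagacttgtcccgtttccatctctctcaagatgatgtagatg
Mmp3 at 1186: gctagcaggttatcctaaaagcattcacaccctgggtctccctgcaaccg
Mmp10 at 1390: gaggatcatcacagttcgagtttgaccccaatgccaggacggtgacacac
Mmp13 at 1262: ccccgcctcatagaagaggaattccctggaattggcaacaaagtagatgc

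Mmp10 encodes stromelysin-2, which cuts proteoglycans, laminin and fibronectin and can activate other metalloproteinases. Its single probe read 1365 in parental and 683 in Rb-deleted MEFs, while the cultures given WT Rb-HA and ΔCdk Rb-HA read 1168 and 1957. Mmp10 was thus lowest in Rb-deleted MEFs, lay between them and parental MEFs with WT Rb-HA, and was highest with ΔCdk Rb-HA. Each step in that order was larger than 2 bead standard errors. Against the parental array the log2 ratio of normalized signal was -0.98 ± 0.05 after Rb deletion (1.98-fold lower), -0.18 ± 0.04 with WT Rb-HA and 0.60 ± 0.05 with ΔCdk Rb-HA (1.51-fold higher). The range over the 4 arrays was 2.99-fold, the widest of the 9 members.

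Mmp3 encodes stromelysin-1, which has a similar range of matrix substrates and also activates procollagenases. Its brightest probe, at base 1573, had intensities of 10139, 6113, 6264 and 7630 on the 4 arrays. The probe at base 1186 had 4880, 3021, 3462 and 4228, and the probe at base 805 had 3450, 2176, 2770 and 3288. All 3 probes gave the same order: parental, ΔCdk Rb-HA, WT Rb-HA and Rb-deleted, from high to low. In Rb-deleted MEFs the log2 ratios to the parental array were -0.68 ± 0.04, -0.68 ± 0.04 and -0.62 ± 0.05 for the probes at 1573, 1186 and 805. The probes differed more in WT Rb-HA MEFs, with -0.66 ± 0.04, -0.49 ± 0.05 and -0.27 ± 0.05. At base 1573 the WT Rb-HA and Rb-deleted arrays differed by less than 2 bead standard errors (0.02 ± 0.05), while at base 805 WT Rb-HA was higher by 0.34 ± 0.05. The level of Mmp3 in WT Rb-HA MEFs therefore depended on the probe. Mmp3 and Mmp10 are similar in sequence, and whether their probes also bind the other transcript was not tested.

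Mmp13 encodes collagenase-3, the main interstitial collagenase of the mouse. Its brightest probe, at base 2454, had intensities of 7891, 3582, 4710 and 6989 on the 4 arrays. The probe at base 1262 had 542, 207, 347 and 532, and the probe at base 2332 had 118, 78.0, 86.6 and 106. Rb-deleted was the lowest and WT Rb-HA the next lowest on all 3 probes. In Rb-deleted MEFs the log2 ratio to the parental array was -1.10 ± 0.04 at 2454 (2.14-fold lower), -1.46 ± 0.09 at 1262 (2.75-fold lower) and -0.75 ± 0.11 at 2332. With WT Rb-HA it was -0.74 ± 0.04, -0.63 ± 0.09 and -0.60 ± 0.12, and with ΔCdk Rb-HA -0.16 ± 0.04, 0.06 ± 0.09 and -0.18 ± 0.11. The ΔCdk Rb-HA and parental arrays thus lay within 2 bead standard errors of each other on 2 of the 3 Mmp13 probes.

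Mmp9 encodes gelatinase B, which cuts denatured collagen and basement membrane type IV collagen and is made in quantity by neutrophils and macrophages. Its only probe had intensities of 1112, 1006, 998 and 560 on the 4 arrays. The first 3 arrays lay within 2 bead standard errors of their neighbours, and ΔCdk Rb-HA stood below them. The log2 ratios to the parental array were -0.07 ± 0.06 after Rb deletion, -0.08 ± 0.07 with WT Rb-HA and -0.90 ± 0.07 with ΔCdk Rb-HA (1.87-fold lower). The pattern of Mmp9 was thus unlike that of Mmp3, Mmp10 and Mmp13.

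Mmp2 encodes gelatinase A, the gelatinase that fibroblasts make constitutively, and Mmp14 encodes the membrane-bound protease (MT1-MMP) that activates pro-Mmp2 at the cell surface. Mmp2 had intensities of 8726, 9985, 9293 and 7471 on the 4 arrays, a range of 1.36-fold from Rb-deleted down to ΔCdk Rb-HA. Mmp14 had 13557, 13417, 13917 and 11718, a range of 1.15-fold. Both were lowest in ΔCdk Rb-HA MEFs, by a step larger than 2 bead standard errors below the next array. Their log2 ratios of ΔCdk Rb-HA to parental were -0.23 ± 0.06 for Mmp2 and -0.20 ± 0.05 for Mmp14.

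None of the 3 TIMPs ranged past 1.6-fold on its brightest probe. Timp1, a secreted inhibitor known for strong expression in cultured fibroblasts, had intensities of 29329, 27363, 28769 and 29417 at base 699 and 26760, 25844, 24715 and 26450 at base 549. Its log2 ratios between arrays lay between -0.02 and 0.03 at base 699, and no 2 neighbouring arrays differed by more than 2 bead standard errors there. With median scaling its ratio was 0.14 in ΔCdk Rb-HA against Rb-deleted MEFs, and without normalization it was -0.10 in Rb-deleted against parental MEFs. The highest intensity of any probe lay between 37759 and 41613, and whether the Timp1 signal was near saturation was not tested. Timp3, which binds to the matrix, had intensities of 12056, 11347, 11853 and 10362 at base 4409, a range of 1.11-fold. Its other probes gave 1168, 977, 1136 and 1193 at base 1804 and 58.6, 54.1, 74.8 and 72.7 at base 3319. The last probe, near background, gave log2 ratios to parental of 0.52 ± 0.15 with WT Rb-HA and 0.50 ± 0.14 with ΔCdk Rb-HA, which the brighter probes did not (-0.01 ± 0.05 and -0.15 ± 0.05 at base 4409). The direction of Timp3 in ΔCdk Rb-HA MEFs therefore depended on the probe.

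Timp2, which blocks Mmp2 and at low level also helps Mmp14 to activate it, had a range of 1.44-fold. Its probe had intensities of 12147, 9524, 8283 and 8540 on the 4 arrays. The 3 TAT-Cre arrays were all below the parental array, with log2 ratios of -0.30 ± 0.06, -0.53 ± 0.04 and -0.48 ± 0.04. Timp2 did not return toward the parental level with either Rb construct. WT Rb-HA and ΔCdk Rb-HA lay within 2 bead standard errors of each other for Timp2.

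**Figure D1:**
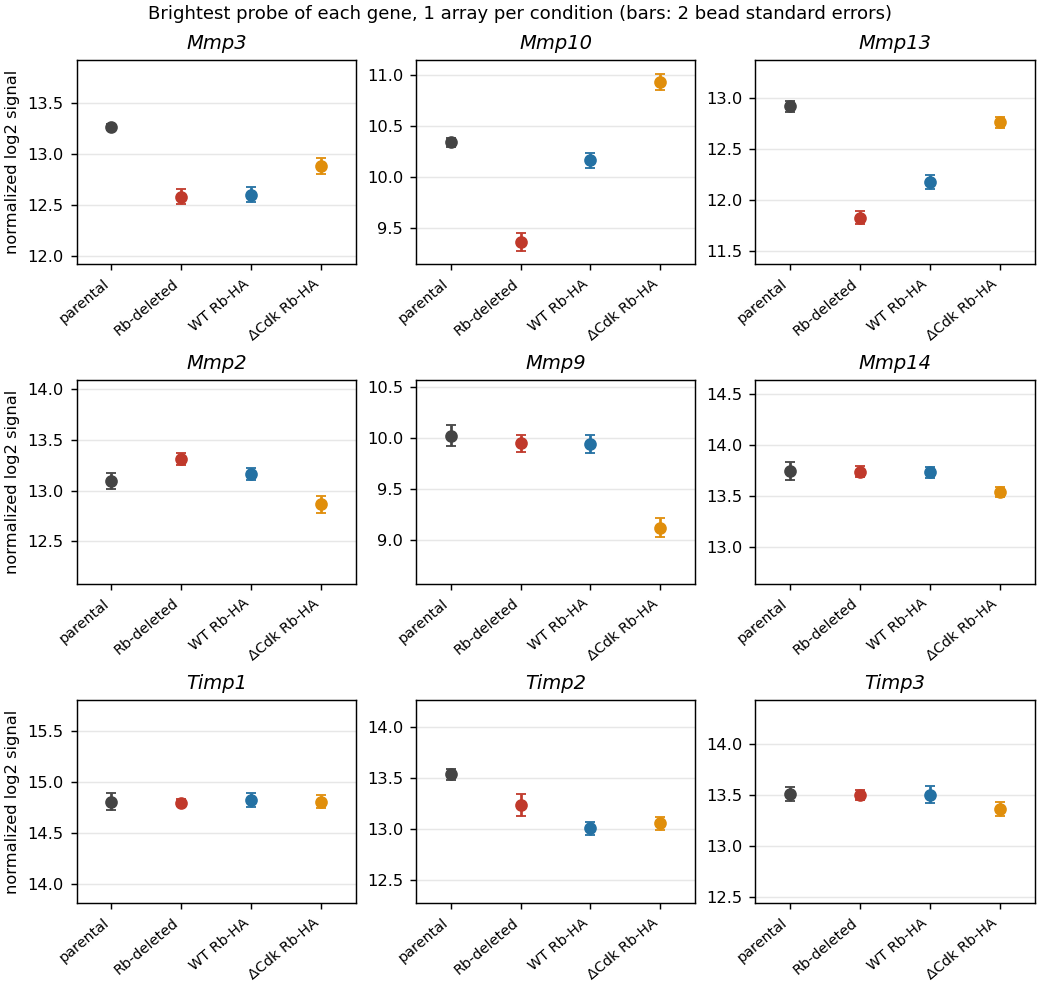
Normalized log2 signal (vertical axis, the same span of log2 units in each panel) of the brightest probe of each member on each of the 4 arrays, 1 per condition; bars are 2 bead standard errors. Mmp3, Mmp10 and Mmp13 are lowest on the Rb-deleted array, Mmp9 is low on the ΔCdk Rb-HA array alone, and Timp1 is nearly level.

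The plot of all detected probes sets the probes of a gene side by side. The probes of Mmp3 and of Mmp13 gave 1 sign after Rb deletion and with WT Rb-HA, and the Timp3 probes differed in sign with either Rb construct.

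**Figure D2:**
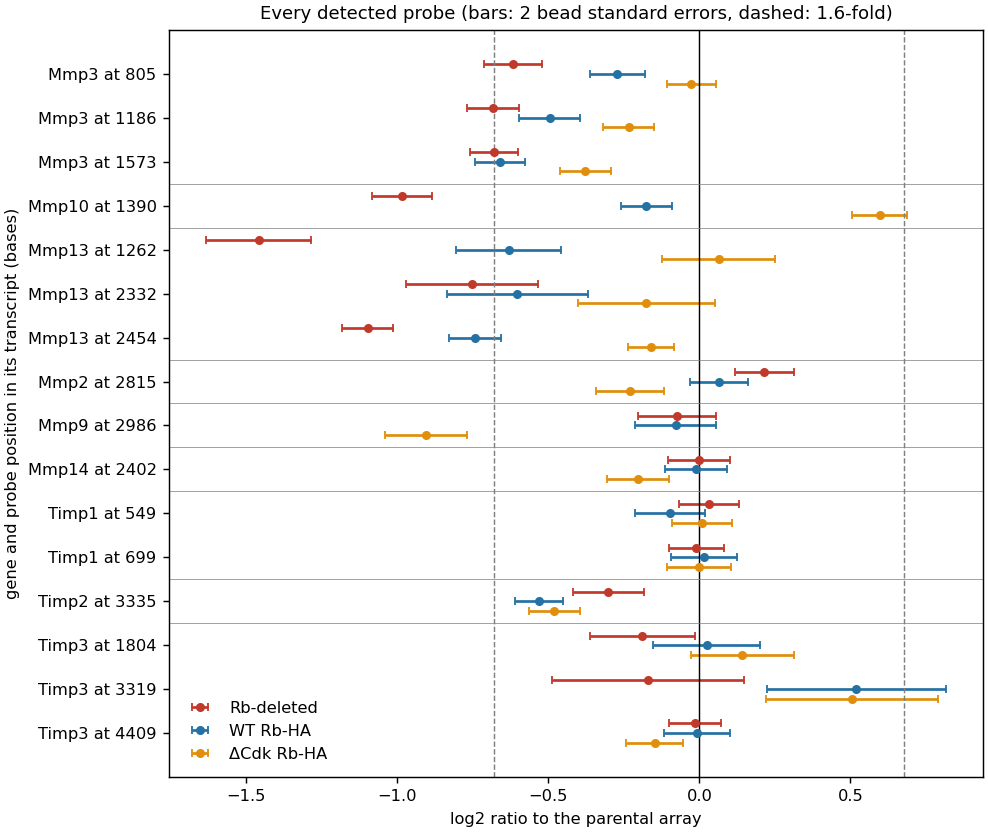
Log2 ratio to the parental array (horizontal axis) of the 16 detected member probes, named by gene and by the base of the transcript at which the probe begins; bars are 2 bead standard errors and dashed lines mark 1.6-fold. All 3 Mmp13 probes lie past the lower line in Rb-deleted MEFs, with -1.46 as the lowest value.

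A change was counted where 2 arrays differed by 1.6-fold or more (0.68 on the log2 scale), the fold filter that the study used. Rb-deleted and parental MEFs differ by the loss of Rb together with TAT-Cre. In Rb-deleted against parental MEFs, 3 of the 9 members were lower past 1.6-fold (Mmp3, Mmp10 and Mmp13), against 2.98% of all genes. None was higher, against 2.14% of all genes. Mmp3, with a log2 ratio of -0.68, stood at the threshold itself. The median log2 ratio was -0.07 over the 9 members and 0.02 over all genes. The ratio was below 0 for 8 of the 9 members and for 5996 of the 12616 genes. The 6 metalloproteinases had a median of -0.38 and the 3 TIMPs -0.02. Of the genes analysed, 122 had a lower ratio than Mmp13 and 165 a lower one than Mmp10.

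WT Rb-HA and Rb-deleted MEFs differ by the return of wild-type Rb together with a retrovirus. With WT Rb-HA, 1 member was higher past 1.6-fold (Mmp10), against 0.539% of all genes, and none was lower, against 0.484%. Mmp10 had a log2 ratio of 0.81 ± 0.06 (1.75-fold), and 39 genes had a higher one. Mmp13 had 0.35 ± 0.05 and Mmp3 0.02 ± 0.05. The 6 other members lay between -0.23 (Timp2) and 0.03 (Timp1).

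ΔCdk Rb-HA and Rb-deleted MEFs differ by unphosphorylatable Rb together with a retrovirus. With ΔCdk Rb-HA, 2 members were higher past 1.6-fold (Mmp10 and Mmp13), against 2.31% of all genes, and 1 was lower (Mmp9), against 1.95%. Mmp10 had a log2 ratio of 1.58 ± 0.06 (2.99-fold), with 26 of 12616 genes above it. Mmp13 had 0.94 ± 0.04 (1.91-fold) and Mmp3 0.30 ± 0.05. Mmp9 had -0.83 ± 0.06 (1.78-fold lower) and Mmp2 -0.44 ± 0.05.

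Both infected cultures lay closer to parental MEFs than Rb-deleted MEFs did for Mmp10 and Mmp13, by different amounts. The deficit of the Rb-deleted array against the parental one was taken as 100 percent on the log2 scale for each probe of Mmp3, Mmp10 and Mmp13. WT Rb-HA recovered 82.1% of it for Mmp10, 20.02% to 56.7% for the 3 Mmp13 probes and 2.71% to 56.0% for the 3 Mmp3 probes. ΔCdk Rb-HA recovered 161% for Mmp10, 76.6% to 104% for Mmp13 and 44.5% to 95.8% for Mmp3. On each of the 7 probes ΔCdk Rb-HA recovered more than WT Rb-HA. These probes belong to 3 genes read on the same arrays, so they are not replicates. No culture had an empty virus, so infection and the return of Rb cannot be told apart in the recovery. Of the 376 genes lower past 1.6-fold in Rb-deleted MEFs, 57 were higher past 1.6-fold when ΔCdk Rb-HA was added and 26 when WT Rb-HA was, and their median log2 ratios to Rb-deleted MEFs were 0.11 and 0.08. These shares use the parental array, which is also in the deficit, and have no error from replicate cultures. The Rb-deleted array is in both the deficit and the recovery. The 3 genes were chosen after they were seen to be low on it, so a low reading there would by itself appear as recovery.

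The cultures given WT Rb-HA and those given ΔCdk Rb-HA both had TAT-Cre and a retrovirus, and by their labels they differed in the RB construct. They were single cultures, and the level of either construct was not measured here. In this comparison, 1 member was higher past 1.6-fold (Mmp10, 0.77 ± 0.05), against 0.84% of all genes, and 1 was lower (Mmp9, -0.83 ± 0.06), against 1.01%. Mmp10 was 1.71-fold higher, with 71 genes above it, and Mmp9 was 1.77-fold lower, with 67 genes below it. Mmp13 (0.58 ± 0.04) and Mmp3 (0.28 ± 0.05) were higher in ΔCdk Rb-HA MEFs by less than 1.6-fold and by more than 2 bead standard errors. Mmp2 (-0.29 ± 0.05) and Mmp14 (-0.19 ± 0.04) were lower in the same sense. The members thus split: Mmp3, Mmp10 and Mmp13 were all on the higher side in ΔCdk Rb-HA MEFs, and Mmp2, Mmp9 and Mmp14 all on the lower side. This grouping was made after the values were seen and was not tested.

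**Figure D3:**
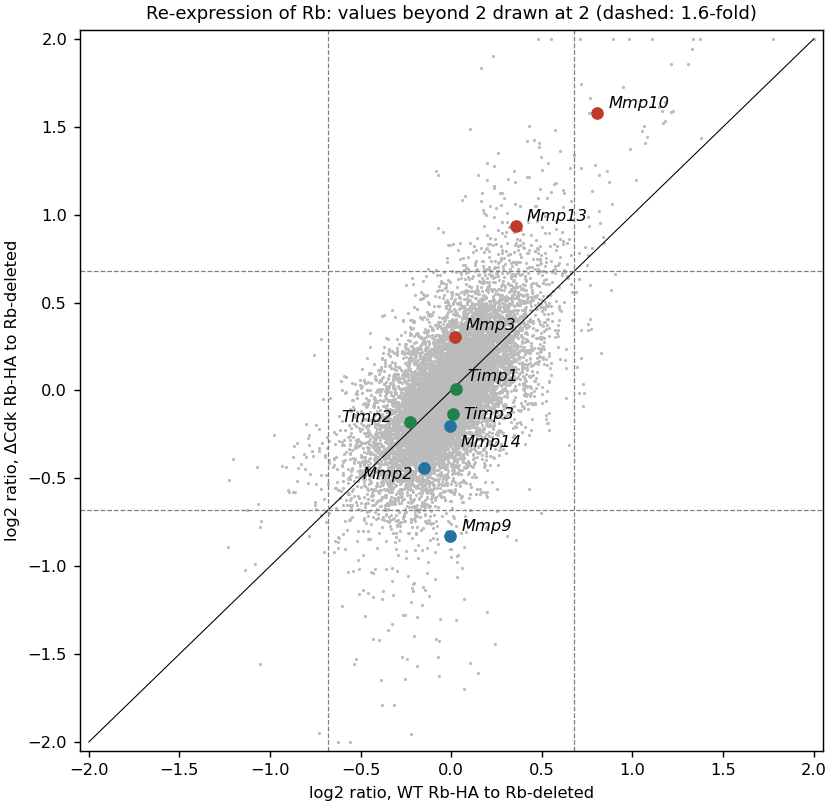
Log2 ratio to the Rb-deleted array, with WT Rb-HA on the horizontal axis and ΔCdk Rb-HA on the vertical axis, for all 12616 genes (grey) and the 9 members (red Mmp3, Mmp10 and Mmp13, blue Mmp2, Mmp9 and Mmp14, green TIMPs); both axes share the Rb-deleted array, the dashed lines mark 1.6-fold and the diagonal marks equal ratios. Mmp10 (0.81 and 1.58) and Mmp13 (0.35 and 0.94) lie above the diagonal, and Mmp9 lies below it at -0.83 on the vertical axis.

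Against parental MEFs, WT Rb-HA MEFs had 1 member lower past 1.6-fold (Mmp13), against 2.46% of all genes, and none higher, against 0.888%. Mmp3 was just short of the threshold there, at 1.58-fold lower. ΔCdk Rb-HA MEFs had 1 member lower (Mmp9), against 3.3% of all genes, and none higher, against 2.58%. The 3 comparisons with parental MEFs share the parental array. Over the 4 arrays, 4 of the 9 members (Mmp3, Mmp9, Mmp10 and Mmp13) ranged past 1.6-fold, as did 11.2% of all genes.

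The genes whose 3 ratios to the parental array lay nearest to those of the 3 members with the widest range were found by Euclidean distance on the log2 scale, over 3 ratios that share the parental array. Nearest to Mmp10 was Il11, which encodes interleukin-11, at a distance of 0.10. It had intensities of 1572, 785, 1304 and 2400 on the 4 arrays. The next nearest to Mmp10 were 2610001E17Rik (0.23) and Fbxl13 (0.26). Nearest to Mmp13 were the stress-response gene Nupr1 (0.19) and Ptgs2 (0.21), which encodes the inducible cyclooxygenase. Nupr1 had intensities of 4195, 2084, 2726 and 3773. Nearest to Mmp9 were Odz4 (0.03), a teneurin gene, Rnf31 (0.08) and E030024M20Rik (0.10). With ΔCdk Rb-HA the signal of E030024M20Rik did not pass detection, so its distance rests on a value not above background.

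Other genes of matrix proteolysis were read from lists of known members. Of 17 other metalloproteinase genes on the array, 10 were detected on at least 1 array, and the median of their ratios to parental was 0.24 after Rb deletion, 0.09 with WT Rb-HA and 0.02 with ΔCdk Rb-HA (log2). By fitted ratio, Mmp15 (in Rb-deleted against parental and against ΔCdk Rb-HA MEFs) and Mmp28 (in WT Rb-HA against Rb-deleted MEFs) passed 1.6-fold. Of all genes, 0.484% to 3.3% passed it in a given direction of a comparison. Mmp15, another membrane-type enzyme, was detected on the Rb-deleted array alone, at an intensity of 69.2, and was at least 1.39-fold higher there than in parental MEFs. Mmp28 was at least 1.25-fold lower with WT Rb-HA, where it was not detected, than in Rb-deleted MEFs. Mmp12, macrophage elastase and the neighbour of Mmp13, had intensities of 84.9, 68.7, 76.7 and 72.0. Mmp1a, between Mmp3 and Mmp10 in the cluster, had 68.0, 74.9, 74.6 and 80.9. The detected neighbours of Mmp3, Mmp10 and Mmp13 were therefore dim and did not pass 1.6-fold in any of the 6 comparisons.

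Of 9 other genes on the array listed for inhibiting or binding these enzymes, 3 were detected (Reck, a membrane-bound inhibitor, and the matrix proteins Sparc and Thbs2). None passed 1.6-fold in any comparison. In a given direction 0.484% to 3.3% of all genes passed it, so these 3 are not set apart by that. The plasminogen activator system supplies plasmin, which cuts prostromelysins and procollagenases. Of its 8 genes on the array 5 were detected. Plau, which encodes urokinase, had intensities of 1917, 1131, 1202 and 1786 on the 4 arrays. It was past 1.6-fold lower in Rb-deleted than in parental MEFs (log2 ratio -0.71), against 2.98% of all genes. It was past 1.6-fold higher with ΔCdk Rb-HA than after Rb deletion alone (0.70), against 2.31%. Serpinb2, which encodes an inhibitor of urokinase, had 903, 688, 1196 and 1275. It was past 1.6-fold higher than in Rb-deleted MEFs with WT Rb-HA (0.82) and with ΔCdk Rb-HA (0.95), against 0.539% and 2.31% of all genes. Of 7 detected activation and trafficking genes, Pcsk6, a proprotein convertase, was past 1.6-fold lower in ΔCdk Rb-HA MEFs (-0.85 against parental). The share of all genes there was 3.3%.

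The ADAM and ADAMTS families are related metalloproteinases that shed membrane proteins and cut proteoglycans. Of 13 detected, 10 had a log2 ratio to parental below 0 in Rb-deleted MEFs, as had 5996 of all 12616 genes. The median of the 13 was -0.43. Past 1.6-fold lower were 2, Adam10 (-0.73) and the aggrecanase gene Adamts4 (-0.98), against 2.98% of all genes. The median was -0.39 with WT Rb-HA and -0.38 with ΔCdk Rb-HA. Adam8, not detected with WT Rb-HA, was at least 1.77-fold lower there than in parental MEFs, where 2.46% of all genes were past 1.6-fold lower. None of the 13 passed 1.6-fold between either Rb construct and Rb-deleted MEFs. Of all genes, 0.539% were higher and 0.484% lower past it with WT Rb-HA, and 2.31% and 1.95% with ΔCdk Rb-HA.

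Genes for known inducers and regulators were read in the same way. Of 7 detected AP-1 subunit genes (Fos, Fosb, Fosl2, Jun, Junb, Jund1 and Atf3), none passed 1.6-fold in any of the 6 comparisons. The medians of their ratios to parental lay between -0.22 and -0.01. At most 3.3% of all genes passed 1.6-fold in a given direction of any comparison. Of 8 detected inducer genes, Il1b, which encodes interleukin-1 beta, was detected on the parental array alone, at 115. It was at least 2.97-fold lower after Rb deletion, at least 2.72-fold lower with WT Rb-HA and at least 2.86-fold lower with ΔCdk Rb-HA. Ptgs2 had intensities of 310, 151, 202 and 238, with a log2 ratio of -1.12 in Rb-deleted against parental and 0.78 in ΔCdk Rb-HA against Rb-deleted MEFs. Osmr, which encodes the oncostatin M receptor, was past 1.6-fold lower in ΔCdk Rb-HA than in parental MEFs (-0.83). Tgfb1, which encodes transforming growth factor beta 1, was past 1.6-fold lower with ΔCdk Rb-HA than after Rb deletion alone (-0.72).

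Genes for the proteins that these enzymes cut had log2 ratios to parental mostly below 0 on all 3 TAT-Cre arrays. Of 12 detected substrate genes, 10 were below 0 after Rb deletion (median -0.22), 10 with WT Rb-HA (-0.19) and 11 with ΔCdk Rb-HA (-0.48). Of all 12616 genes, 5996, 6127 and 6420 were below 0. Past 1.6-fold lower were 1 after Rb deletion (Col3a1), none with WT Rb-HA and 3 with ΔCdk Rb-HA, against 2.98%, 2.46% and 3.3% of all genes. In ΔCdk Rb-HA MEFs these were Eln (elastin, -1.63), Acan (aggrecan, -1.16) and Col3a1 (type III collagen, -0.98). Eln had intensities of 1904, 3174, 2080 and 588 on the 4 arrays, and was past 1.6-fold higher in Rb-deleted MEFs (0.82). Like Mmp2, Eln was highest on the Rb-deleted and lowest on the ΔCdk Rb-HA array.

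The cultures were checked for their labelled cell type and for other cells. All 12 fibroblast markers were detected on all 4 arrays, and their summed intensity lay between 62220 and 69810. The brightest were Vim (14439 on the parental array), Fbln2 (12745) and Dcn (9098). Of 21 macrophage and leukocyte markers, 17 were detected on at least 1 array, and their intensities summed to 13080, 6659, 6153 and 7764 on the 4 arrays. The brightest was Lyz, with 4801, 2976, 2803 and 3611, followed by Laptm5, with 2286, 860, 663 and 782, and by Lyzs. The lysozyme symbols Lyz, Lyz2 and Lyzs were each counted, and whether they stand for separate genes was not checked. By fitted ratio, 14 of the 17 were past 1.6-fold lower than parental after Rb deletion, 16 with WT Rb-HA and 13 with ΔCdk Rb-HA. The shares of all genes were 2.98%, 2.46% and 3.3%. C1qa, counted with both constructs but detected with neither, was at least 1.47-fold lower with WT Rb-HA and at least 1.54-fold lower with ΔCdk Rb-HA. In Rb-deleted MEFs, Mmp3, Mmp10 and Mmp13 were lower as well. With WT Rb-HA against Rb deletion alone, where Mmp10 was 1.75-fold higher, none of the 17 passed 1.6-fold (median log2 ratio -0.16). Of all genes, 0.539% were higher and 0.484% lower past 1.6-fold there. With ΔCdk Rb-HA against Rb deletion alone 1 of the 17 was higher past 1.6-fold (Cd53), against 2.31% of all genes, with a median of -0.06. With ΔCdk Rb-HA against WT Rb-HA, where Mmp3, Mmp10 and Mmp13 were higher, 13 of the 17 were above 0 with a median of 0.18. Cd53 (1.00) and Lyz2 (0.78) were higher past 1.6-fold, against 0.84% of all genes. The other lysozyme symbols, Lyzs (0.45) and Lyz (0.37), did not pass it. Mmp9, which macrophages make, was level on these arrays except the one of ΔCdk Rb-HA MEFs. Mmp12, macrophage elastase, was lower than parental on all 3 TAT-Cre arrays, with log2 ratios of -0.41 ± 0.14, -0.23 ± 0.16 and -0.32 ± 0.14. Il1b was detected on the parental array alone. In whole cultures, fewer cells of a type and less RNA per cell cannot be told apart.

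Of 11 neutrophil and mast cell markers, 4 were detected, with summed intensities of 306, 287, 328 and 493. The highest was S100a8, with 150.0, 128, 165 and 311, which was past 1.6-fold higher in ΔCdk Rb-HA MEFs, where Mmp9 was lowest. Of 6 endothelial markers 1 was detected and of 5 epithelial markers 4, and none of these passed 1.6-fold in any comparison. Among all genes, 0.484% to 3.3% passed 1.6-fold in a given direction of a comparison. The part of any of these cells in the members' values was not tested.

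**Figure D4:**
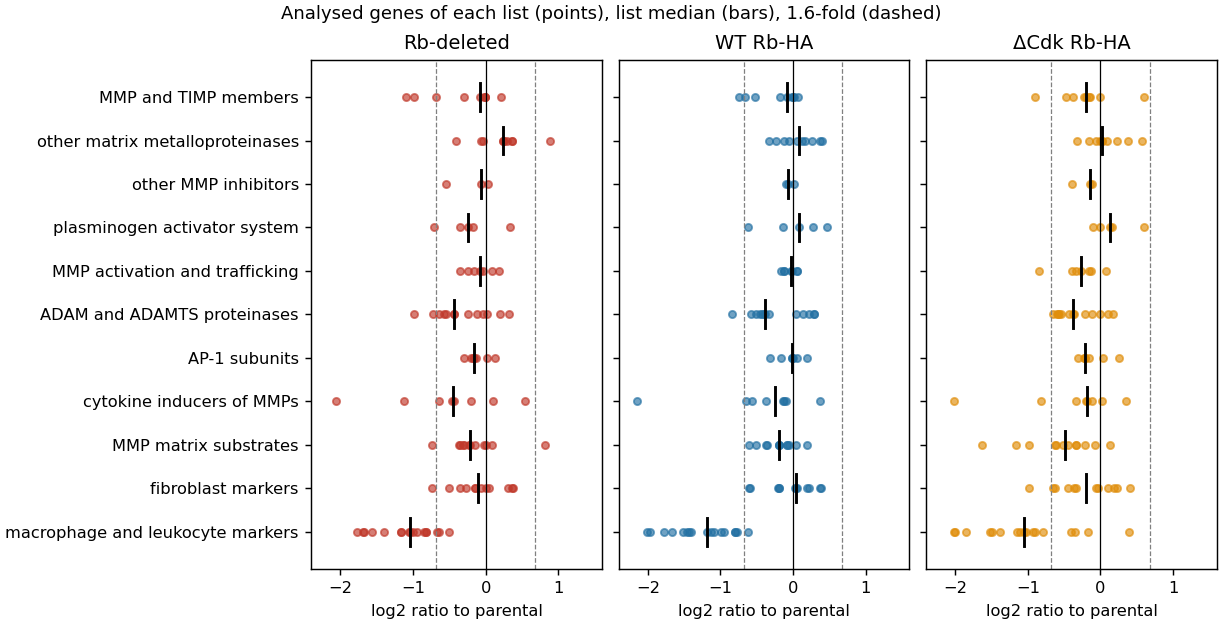
Log2 ratio to the parental array (horizontal axes) of the detected genes of each list (points), with the list's median as a bar and 1.6-fold as dashed lines, in 1 panel for each TAT-Cre array; genes not detected on 1 of the 2 arrays are drawn at their fitted value. The 17 macrophage and leukocyte markers have medians of -1.04, -1.18 and -1.05, and the 7 AP-1 subunit genes stay between the dashed lines.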

How the data were processed

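Biotin-labelled cRNA of 4 MEF cultures, 1 per condition, was hybridized to 4 positions of 1 MouseWG-6 v2.0 BeadChip. The authors deposited the intensity of each of 45281 probes, the mean over its beads with no normalization between arrays, with its bead standard error and number of beads. The detection p-value of each probe was deposited as well and moves in steps of 1/936. The scanner software and genome build are not given in the sources used here, so the probe coordinates of the table are not printed. Samples were grouped by title.

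Background was corrected by normexp from the detection p-values (limma 3.58.1 in R 4.3.3, offset 16), followed by quantile normalization and log2. Genes with a probe below a detection p of 0.01 on at least 1 array (17746 probes, 12616 genes) were analysed by their brightest probe. A symbol that read as a date or number was restored from the Entrez identifier in 41 cases of 58. A probe without a symbol was kept under its probe identifier and counted as a gene. The log2 ratios of 6 comparisons were read against a 1.6-fold threshold. Bead standard errors were carried through the correction and normalization. For a gene not detected on the dimmer array, the fold was computed against the lowest signal among detected probes, or the gene's own if higher, and is given as at least that value. The median of all genes lay within 0.04 of 0 in each comparison. The number of arrays limits the precision. The fold count was tested on simulated data.

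Alternatives were the background correction, offset (50), normalization, detection filter (0.05, or all 4 arrays), probe averaging and fold (2-fold). Named genes were Rb1, all members, the listed genes past 1.6-fold (at most 5 each way), the 3 nearest patterns of the 3 members of widest range and the 3 brightest markers of a list; 1 gene among the nearest patterns is not reported here. The members and lists were chosen with earlier results of these data known. Promoters are RefSeq's (250 bases before the start). No protein sequences were used.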

Additional observations from a re-analysis of the deposited data

How the results depend on the processing

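Each member ratio was recomputed under 7 other settings of the processing. The 2 changes of the detection filter could not move a member ratio, since each member's brightest probe was detected on all 4 arrays. The mean of probes could not move the members with 1 detected probe (Mmp2, Mmp9, Mmp10, Mmp14 and Timp2). The totals below include these fixed cases. Of 378 recomputed ratios, 21 changed sign, and each of these had a size of at most 0.15 (log2) as reported. Of the 77 recomputations of a ratio reported past 1.6-fold, 73 were still past it in the same direction. The lost ones were Mmp3 in Rb-deleted against parental MEFs without background correction (-0.68), with an offset of 50 (-0.68) and with the mean of probes (-0.66), and Mmp13 in WT Rb-HA against parental MEFs with the mean of probes (-0.66). Without normalization Mmp3 passed in WT Rb-HA against parental MEFs (-0.70), so 2 members were lower there, while with the mean of probes 0 were. With a 2-fold threshold, 1 member was lower in Rb-deleted against parental MEFs (Mmp13), 1 was higher in ΔCdk Rb-HA against Rb-deleted MEFs (Mmp10), and 0 passed elsewhere. The member median moved to -0.15 without normalization and -0.12 with the mean of probes in Rb-deleted against parental MEFs, to -0.16 without normalization in WT Rb-HA against parental MEFs, to 0.0739 with median scaling in WT Rb-HA against Rb-deleted MEFs, to -0.0059 with the mean of probes in ΔCdk Rb-HA against Rb-deleted MEFs, and to 0.0428 with median scaling and 0.0446 with the mean of probes in ΔCdk Rb-HA against WT Rb-HA MEFs, where it was -0.02 as reported. Over all genes, 270 were higher and 376 lower in Rb-deleted against parental MEFs, with 143 and 243 without background correction and 124 and 215 with an offset of 50. The cause of these shifts was not tested. No paired analysis was possible because each condition has 1 array. Probes near background, such as the Timp3 probe at base 3319, carry bead standard errors above 0.1 in their ratios.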

Other observations

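The AP-1 and TATA box matches found before Mmp3, Mmp10 and Mmp13 were also looked for before all other genes, after the members' values were known, and no test was made. Of the analysed genes, 6763 had a promoter entry, and 3.19% of these were lower past 1.6-fold in Rb-deleted against parental MEFs. Of the 394 with TGANTCA in the 250 bases before a start, 8.38% were lower. Of the 47 with both motifs, the 3 members left out, 7 were lower (14.9%) and 1 was higher. In ΔCdk Rb-HA against Rb-deleted MEFs 6 of the 47 were higher (12.8%, against 1.97% of the 6763) and 2 were lower. Their medians were -0.06 and -0.01 on the log2 scale, and most of the 47 passed 1.6-fold in neither direction of either comparison. In the other comparisons the 47 also passed 1.6-fold more often than the 6763, in both directions. Against parental MEFs, ΔCdk Rb-HA MEFs had 5 of the 47 higher (10.6%, against 2.42%) and 6 lower (12.8%, against 3.68%). Against WT Rb-HA MEFs they had 3 higher and 3 lower (6.38% each way, against 0.946% and 0.976%). The 7 that were lower in Rb-deleted against parental MEFs were chosen for naming after their values were seen. They were the chemokine genes Ccl9 (log2 ratio -1.78) and Ppbp (-0.68), the interferon-induced gene Rsad2 (-2.31), the NF-kB target Tnfaip3 (-1.30), Ivl (-1.22), Plekha4 (-0.87) and Elf1 (-0.72). Of these, Ivl, which encodes involucrin, and Ppbp were past 1.6-fold higher with ΔCdk Rb-HA than after Rb deletion alone (2.54 and 2.19), as Mmp10 and Mmp13 were, while Rsad2 was lower still (-1.56).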
